A study of Mus musculus with 6 samples.

Results

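The mouse genome encodes a superfamily of aldehyde dehydrogenases, enzymes that oxidise reactive aldehydes to acids with NAD or NADP as the electron acceptor. The genes described here are 8 members of the superfamily that lie outside the ALDH1 group, namely Aldh2, Aldh3a1, Aldh3a2, Aldh3b1, Aldh4a1, Aldh6a1, Aldh16a1 and Aldh18a1. They were picked out by gene name, with earlier results of these data known, and all 8 were found among the 7320 genes of the deposited expression table. The table held 18 aldehyde dehydrogenase genes in all, of which 7 belong to ALDH1 and 3 more (Aldh3b2, Aldh5a1 and Aldh7a1) are shown only for comparison. The expression of Aldh3b3, Aldh8a1 and Aldh9a1 was not analysed here.

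Poly-A RNA was sequenced from ID8 and KMF tumorspheres. ID8 is a line of transformed ovarian epithelial cells from C57Bl6 mice. KMF (labelled id8ip) is a subline obtained by passing ID8 through C57Bl6 mice and collecting tumor cells from their ascites. It carries DNA gains that include Myc and Ptk2, the gene of focal adhesion kinase. Both lines received no drug and were grown for 5 days in serum-free PromoCell XF medium on plates to which cells do not adhere. There were 3 libraries per line, from passages 23, 24 and 35 for ID8 replicates 1 to 3 and passages 14, 17 and 22 for KMF replicates 1 to 3. Every KMF library was therefore at a lower passage than every ID8 library, so the line and its passage number cannot be told apart. Each line is a single isolate, and nothing in the labels ties a library to an animal, so that p-values measure the spread between cultures of one line.

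Aldehyde dehydrogenase activity, measured as conversion of a fluorescent aldehyde, is widely used as a marker of stem-like tumor cells. The study used it to compare tumorspheres and reported a larger share of cells with high activity in KMF than in ID8. Several genes can contribute to aldehyde metabolism. ALDH2 is a mitochondrial enzyme that clears acetaldehyde and aldehydes of lipid peroxidation. The ALDH3 enzymes act on aromatic and fatty aldehydes in the cytosol and at membranes. ALDH4A1, ALDH6A1 and ALDH18A1 are steps of amino acid metabolism inside mitochondria, and ALDH16A1 is a large protein with no known catalytic activity in mammals. RNA level is described below, and enzyme activity was not measured in these libraries.

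The catalytic step of the family runs through a cysteine that attacks the aldehyde carbon, with a glutamate nearby in sequence that acts as the base. The coding stretch around that cysteine was read from the GENCODE M21 coding transcript of each member on GRCm38, because it shows which members carry the classical active site. The pattern of the PROSITE aldehyde dehydrogenase cysteine active site was found in 6 of the 8 translated members. Each of the 6 stretches of 33 bases lies within a single coding exon and is written on the gene's own strand, with the cysteine codon in capitals.
Aldh2: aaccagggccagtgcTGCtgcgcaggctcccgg
Aldh3a1: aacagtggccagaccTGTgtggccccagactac
Aldh3a2: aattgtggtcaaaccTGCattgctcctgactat
Aldh3b1: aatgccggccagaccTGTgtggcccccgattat
Aldh4a1: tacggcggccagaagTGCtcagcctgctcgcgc
Aldh6a1: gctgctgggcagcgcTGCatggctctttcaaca

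The cysteine is codon 321 of 519 in Aldh2 (exon 9 of 13, chr5:121572787-121572819, minus strand). It is codon 244 of 453 in Aldh3a1 (exon 6 of 11, chr11:61215515-61215547, plus strand) and codon 241 of 484 in Aldh3a2 (exon 5 of 10, chr11:61258801-61258833, minus strand). In Aldh3b1 it is codon 244 of 468 (exon 7 of 10, chr19:3918805-3918837, minus strand). In Aldh4a1 it is codon 347 of 562 (exon 10 of 15, chr4:139642163-139642195, plus strand), and in Aldh6a1 codon 317 of 535 (exon 8 of 12, chr12:84436805-84436837, minus strand). The glutamate pattern was found 34 codons before the cysteine in 5 of these members and had no match in Aldh6a1, whose enzyme uses coenzyme A in place of water to release its product. Neither pattern matched Aldh16a1 (802 codons) or Aldh18a1 (795 codons), the latter of which fuses a glutamate kinase to a reductase and runs the aldehyde step in the reducing direction. The stretch shown for Aldh3b1 is identical, base for base, in its neighbours Aldh3b2 and Aldh3b3.

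The libraries held between 23108407 and 33212313 fragments on genes, of which the listed genes carried 52.8% to 55.9%. Levels are given as FPKM, the fragments of a gene divided by its listed length and by the total of its library, and as mean ± SD with n = 3 libraries per line. Changes are log2 fold changes of KMF over ID8 from edgeR's quasi-likelihood fit to the counts of the whole table. The standard error beside each was derived, as the absolute log2 fold change divided by the square root of the test's F statistic. A gene is termed called where its Benjamini-Hochberg adjusted p was under 0.05. The deposited table holds only genes that the authors had already found different between these same libraries, and edgeR called 92.9% of the fitted genes, 45.4% as higher and 47.5% as lower in KMF. The fold changes and p-values of the members are therefore a description of these libraries, and that all 8 members were called adds nothing to how they were listed. Of the marker lists for other cells, 1 of 10 leukocyte genes (Fcgr3), 1 of 6 endothelial genes (Kdr) and 4 of 8 fibroblast genes were in the table, the rest not being analysed here. The summed FPKM of these fibroblast genes was 77.4 to 107 in ID8 and 13.5 to 25.9 in KMF, that of Fcgr3 1.63 to 5.90 and 0.189 to 1.01, and Kdr did not exceed 0.0699 in ID8 and was at 0 in KMF. Col3a1, Col1a1 and Dcn led the fibroblast genes with log2 fold changes of -3.42, -2.67 and -2.18. The summed level of the 9 ovarian surface and mesothelial genes in the table was 150 to 229 in ID8 and 161 to 213 in KMF, with Msln called higher and 6 called lower, led by Lrrn4, Upk3b and Cdh1 at log2 fold changes of -4.08, -3.88 and -3.55. The part of these markers in the results below was not tested, and in bulk RNA fewer cells of a type and less RNA per cell cannot be told apart.

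Of the 8 members, 5 were lower in KMF (Aldh2, Aldh3a2, Aldh3b1, Aldh4a1 and Aldh6a1) and 3 were higher (Aldh3a1, Aldh16a1 and Aldh18a1). In each of them the 3 libraries of one line lay entirely above or below those of the other, as did 96.6% of all fitted genes. The median log2 fold change of the members was -0.69, beside -0.23 for all 6967 fitted genes, and their median absolute change was 0.96, beside 0.79. The reference value depends on genes with few counts, since the median over all genes was 0.20 among those with at least 10 counts in every library, as all members have. The same holds wherever a list is set beside -0.23. The changes ranged from a fall by 1.40 on the log2 scale for Aldh3b1 to a rise of 1.00 for Aldh3a1.

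**Figure D1:**
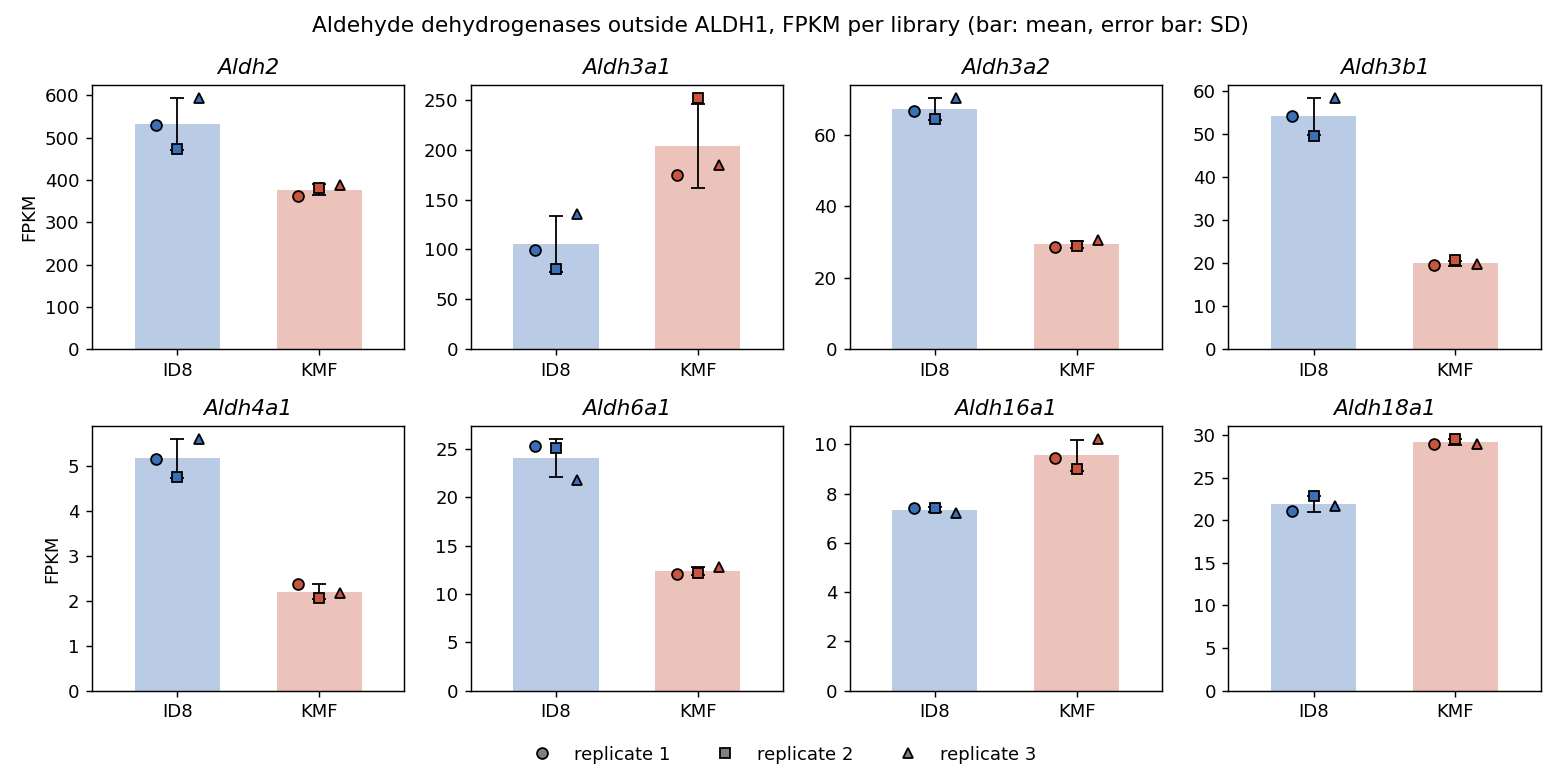
FPKM of each member in the 3 ID8 and 3 KMF libraries. Bars are means, error bars the SD and symbols the replicates, with an axis from 0 that differs between panels. The lines are separate in each panel, with Aldh3a1, Aldh16a1 and Aldh18a1 higher and the other 5 genes lower in KMF.

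Aldh2 (ENSMUSG00000029455, chr5:121566027-121593824, minus strand, positions on GRCm38 as the table lists them here and below) was the most abundant member by far. Its level was 530, 473 and 594 FPKM in ID8 replicates 1 to 3 and 363, 382 and 387 FPKM in KMF replicates 1 to 3. All KMF libraries were below the lowest ID8 library, and the KMF libraries were also closer to each other (12.8 FPKM SD) than the ID8 libraries (60.9 FPKM SD). The mean fell from 532 ± 60.9 to 377 ± 12.8 FPKM, a log2 fold change of -0.46 ± 0.10 (adjusted p = 0.00655). Even so, only 80 listed genes had a higher mean FPKM than Aldh2 in KMF, and 51 in ID8. The fold change rested on 33078 to 60482 fragments per library, so that counting error is small beside the spread between libraries.

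The ALDH3 members moved apart. Aldh3a1, an enzyme of the cytosol best known from the cornea and as a target of the aryl hydrocarbon receptor, was the only ALDH3 member that was higher in KMF. Aldh3a1 (ENSMUSG00000019102, chr11:61207537-61218421, plus strand) stood at 99.5, 80.8 and 135.5 FPKM in ID8 and at 174.8, 252.0 and 184.3 FPKM in KMF. Its highest ID8 library (replicate 3) remained below its lowest KMF library (replicate 1). The means were 105 ± 27.8 and 204 ± 42.1 FPKM, and the log2 fold change was 1.00 ± 0.20 (adjusted p = 0.00614). Aldh3a1 was also the member that varied most within a line, with a coefficient of variation of 26.4% in ID8 and 20.7% in KMF, against at most 11.4% and 7.28% for the other 7 members.

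Aldh3a2, the fatty aldehyde dehydrogenase of the endoplasmic reticulum, went the other way. Aldh3a2 (ENSMUSG00000010025, chr11:61223417-61267464, minus strand) was at 66.5, 64.4 and 70.4 FPKM in ID8 and at 28.7, 28.9 and 30.5 FPKM in KMF. The lowest ID8 library was 2.12 times the highest KMF library. The mean fell from 67.1 ± 3.04 to 29.4 ± 0.965 FPKM, with a log2 fold change of -1.15 ± 0.07 (adjusted p = 2.07e-05). Aldh3a1 and Aldh3a2 are next to each other on chromosome 11, with 4995 bases between them, and are transcribed toward each other. Their translated products share 64.0% of aligned residues, the highest identity of any pair of members, but no identical run of coding bases longer than 20.

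Within a library, the ratio of Aldh3a1 to Aldh3a2 compares this pair without reference to library size. It was 1.50, 1.25 and 1.92 in ID8 and 6.10, 8.71 and 6.05 in KMF. The ratio was thus above 1 in each library and rose from a mean of 1.56 ± 0.339 to 6.95 ± 1.52 without overlap. Slc47a2, the next listed gene beyond Aldh3a2, had a log2 fold change of -7.57 ± 0.92.

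Aldh3b1, a membrane-bound enzyme for medium- and long-chain aldehydes, had the largest change of the 8 genes. Aldh3b1 (ENSMUSG00000024885, chr19:3913493-3929761, minus strand) was at 54.2, 49.6 and 58.3 FPKM in ID8 and at 19.5, 20.7 and 19.7 FPKM in KMF. The KMF libraries lay within 1.06-fold of each other and all far below ID8. The mean fell from 54.1 ± 4.36 to 20.0 ± 0.605 FPKM, with a log2 fold change of -1.40 ± 0.08 (adjusted p = 2.13e-05).

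Aldh3b2, the related gene 42566 bases away on chromosome 19, moved in the opposite direction at a low level, with ID8 replicate 2 close to the floor of 3 counts. It had 29, 4 and 30 counts in ID8 and 52, 117 and 135 in KMF, which correspond to means of 0.361 and 1.76 FPKM and a log2 fold change of 2.31 ± 0.58 (adjusted p = 0.0147). The translated products of Aldh3b1 and Aldh3b2 share 80.0% of aligned residues and a longest coding run of 87 identical bases, and Aldh3b1 and Aldh3b3 share 82.2% and a run of 107. How reads common to these genes were assigned is not given in the sources used here, so the low values of Aldh3b2 are uncertain. Aldh3b1 was 107 to 641 times the level of Aldh3b2 in ID8 and 8.73 to 19.0 times in KMF.

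**Figure D2:**
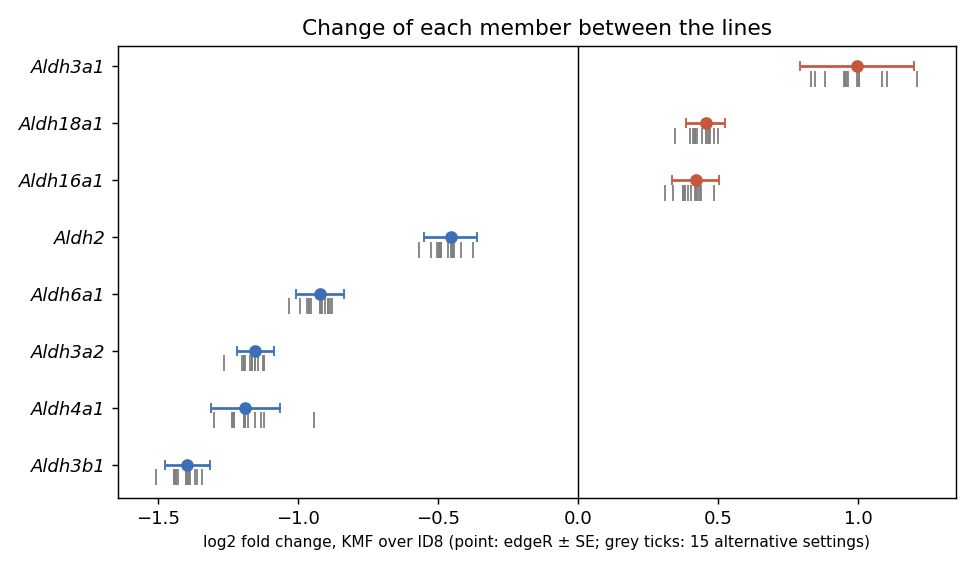
Log2 fold change of each member, KMF over ID8. Points and bars are the edgeR estimate and the standard error derived from its F statistic, and grey ticks the estimates under 15 other settings. Aldh3b1 lies lowest at -1.40 and Aldh3a1 highest at 1.00, and in no setting did a member cross 0.

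A pair of members acts on the same intermediate of proline metabolism, in opposite directions. ALDH18A1 turns glutamate into the aldehyde from which pyrroline-5-carboxylate forms, the committed step of proline synthesis, and ALDH4A1 oxidises pyrroline-5-carboxylate back to glutamate, the last step of proline breakdown. The gene for synthesis was higher in KMF and the gene for breakdown lower.

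Aldh18a1 (ENSMUSG00000025007, chr19:40550257-40588463, minus strand) was at 21.1, 22.9 and 21.7 FPKM in ID8 and at 29.0, 29.6 and 29.0 FPKM in KMF. The lowest KMF library exceeded the highest ID8 library by a ratio of 1.27. Its mean rose from 21.9 ± 0.938 to 29.2 ± 0.337 FPKM, a log2 fold change of 0.46 ± 0.07 (adjusted p = 0.00156). With a coefficient of variation of 1.15% it was the steadiest member in KMF.

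Aldh4a1 (ENSMUSG00000028737, chr4:139622866-139649690, plus strand) was the least abundant member in both lines, at 5.16, 4.74 and 5.60 FPKM in ID8 and 2.38, 2.06 and 2.17 FPKM in KMF. All ID8 libraries were above all KMF libraries. The mean fell from 5.17 ± 0.429 to 2.20 ± 0.160 FPKM, with a log2 fold change of -1.19 ± 0.12 (adjusted p = 0.000232), on 197 to 630 counts per library. The gene shares 1595 exon bases with the annotated transcript Gm21969 on the same strand, and reads from these cannot be told apart. The listed length of Aldh4a1 (4142 bases) is that of a non-coding transcript of the gene. With the length of the coding transcript (3382 bases) its mean level would be 6.33 FPKM in ID8 and 2.70 in KMF, still the lowest of the 8 genes.

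In each library Aldh18a1 was therefore the more abundant of this pair. The ratio of Aldh18a1 to Aldh4a1 was 4.08, 4.83 and 3.87 in ID8 and 12.2, 14.4 and 13.3 in KMF. Its mean rose from 4.26 ± 0.504 to 13.3 ± 1.08, and the lines did not overlap.

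A list of 18 names for other genes of proline synthesis and breakdown had 8 genes in the table, of which 6 were higher in KMF, 1 was lower and 1 was not called, where 45.4% of all fitted genes were higher and 47.5% lower. The median log2 fold change of these 8 was 0.59, beside -0.23 for all fitted genes. P4ha2, a collagen prolyl hydroxylase subunit, was at 2.73, 7.12 and 8.49 FPKM in ID8 and at 14.3, 24.6 and 23.5 in KMF (log2 fold change 1.81 ± 0.39, adjusted p = 0.00802). Pycr1, which carries out the final step of proline synthesis in mitochondria, was low in ID8 at 1.03 ± 0.121 FPKM and rose to 2.76 ± 0.300 (1.45 ± 0.19, adjusted p = 0.000664). Glud1, glutamate dehydrogenase, rose from 62.5 ± 3.13 to 109 ± 8.06 FPKM (0.85 ± 0.09, adjusted p = 0.000212). The other genes of this list given here were named after their values were seen. Oat, which links ornithine to the same intermediate, had a log2 fold change of 0.40 ± 0.09. Got2, mitochondrial aspartate aminotransferase, was the gene that fell, by 0.39 on the log2 scale. P4ha1 missed the threshold at 0.62 ± 0.29 (adjusted p = 0.157). Prodh, the enzyme that starts proline breakdown, was not analysed here.

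Aldh6a1, methylmalonate-semialdehyde dehydrogenase, ends the mitochondrial breakdown of valine and thymine by making propionyl-CoA. Aldh6a1 (ENSMUSG00000021238, chr12:84430723-84450950, minus strand) was at 25.3, 25.1 and 21.8 FPKM in ID8 and at 12.1, 12.1 and 12.8 FPKM in KMF. The lowest ID8 library was 1.70 times the highest KMF library. Its mean fell from 24.1 ± 1.96 to 12.4 ± 0.411 FPKM, with a log2 fold change of -0.92 ± 0.09 (adjusted p = 0.00015). It shares 1078 exon bases with Bbof1 on the opposite strand, and whether counting used strand is not given in the sources used here.

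Of a list of 27 names for other genes of branched-chain amino acid and propionate breakdown, 16 were in the table. Of these, 13 were lower in KMF, 2 were higher and 1 (Auh) was not called, beside 47.5% lower and 45.4% higher among all fitted genes. The median log2 fold change of the 16 was -0.51, beside -0.23 for all fitted genes. Abat, the aminotransferase of 4-aminobutyrate and of an amino form of the valine intermediate, was nearly lost, from 15.1, 14.3 and 14.1 FPKM in ID8 to 0.311, 0.112 and 0.227 in KMF (log2 fold change -6.01 ± 0.25, adjusted p = 7.38e-06). Ppm1k, the phosphatase that activates the branched-chain ketoacid dehydrogenase, fell from 2.99 to 1.31 FPKM (-1.14 ± 0.13, adjusted p = 0.00042).

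The steps directly before and after Aldh6a1 and the ketoacid dehydrogenase subunits were chosen for mention after their values were seen. Hibch and Hibadh, which act just before it in valine breakdown, had log2 fold changes of -0.68 ± 0.13 and -0.90 ± 0.07. Pcca and Pccb, the subunits of propionyl-CoA carboxylase that takes up its product, fell by 0.37 ± 0.10 and by 1.00 ± 0.07. Each of these genes was called lower. The ketoacid dehydrogenase subunits Bckdha and Bckdhb were lower as well, at -0.54 ± 0.10 and -0.48 ± 0.14.

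The genes of this list that were called higher were Bcat1 and Bckdk. Bcat1, the cytosolic aminotransferase of branched-chain amino acids, was at 0.645, 0.471 and 0.975 FPKM in ID8 and at 2.89, 1.59 and 3.07 in KMF (1.89 ± 0.32, adjusted p = 0.00256). Bckdk, the kinase that switches the ketoacid dehydrogenase off and also named after its value was seen, had a log2 fold change of 0.29 ± 0.07 (adjusted p = 0.0156). The members of the amino acid routes can be set against each other in the same library. The ratio of Aldh6a1 to Aldh18a1 was 1.20, 1.10 and 1.01 in ID8 and 0.418, 0.411 and 0.443 in KMF, so that the genes were close in ID8, where their libraries overlapped, and Aldh6a1 was the lower in each KMF library.

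**Figure D3:**
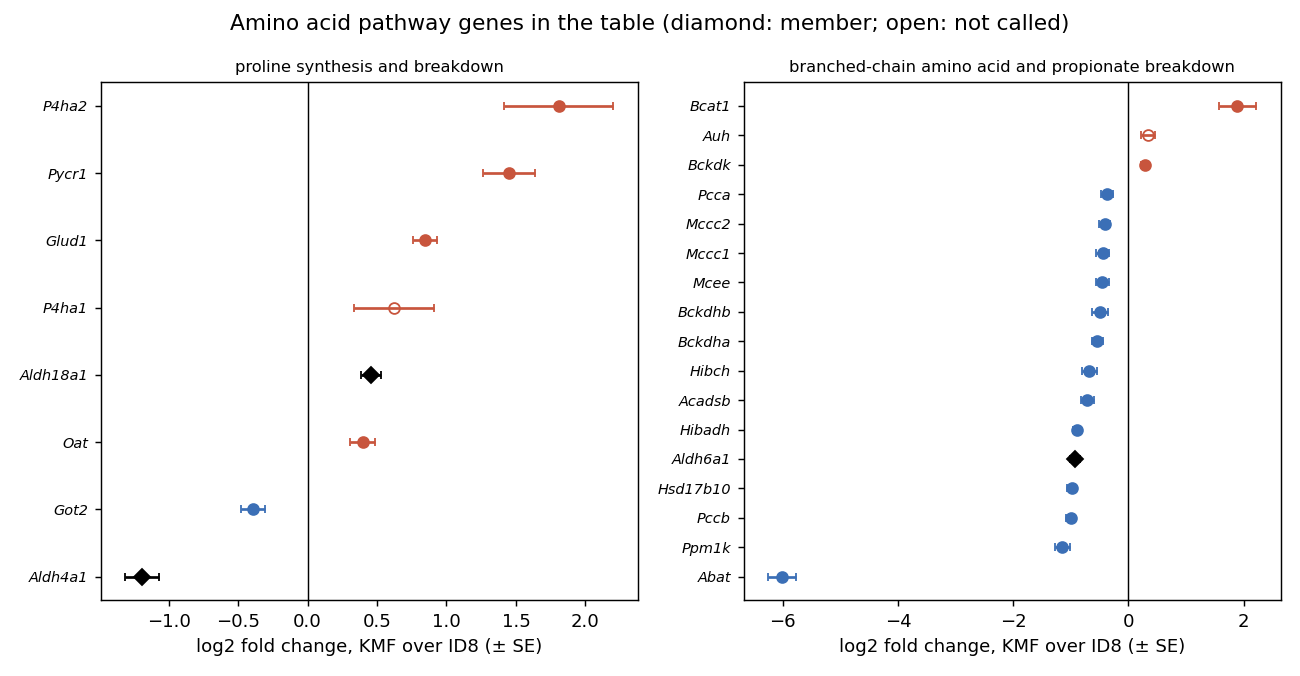
Log2 fold change, KMF over ID8, with standard error for the genes of the proline list that the text names (left) and of the branched-chain amino acid and propionate list (right). Diamonds are members and open circles genes that were not called. On the left 4 of the plotted genes beside Aldh18a1 were called above 0, and on the right 13 genes beside Aldh6a1 were called below 0.

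Aldh16a1 (ENSMUSG00000007833, chr7:45140684-45154584, minus strand) was among the members with small changes, beside Aldh2 and Aldh18a1. It was at 7.41, 7.39 and 7.22 FPKM in ID8 and at 9.45, 8.98 and 10.2 FPKM in KMF. The ID8 libraries differed by a coefficient of variation of only 1.42%, and each KMF library was above them. Its mean rose from 7.34 ± 0.104 to 9.55 ± 0.629 FPKM, a log2 fold change of 0.42 ± 0.09 (adjusted p = 0.00588). Aldh16a1 overlaps Pih1d1 on the opposite strand by 149 exon bases, and Pih1d1 had a log2 fold change of 0.42 as well. The listed length of Aldh16a1 (4074 bases) is that of a transcript with a retained intron, and with the coding transcript (3537 bases) its means would be 8.46 and 11.0 FPKM.

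Within each line the 8 genes covered a wide range of levels. In ID8 the order by mean FPKM was Aldh2, Aldh3a1, Aldh3a2, Aldh3b1, Aldh6a1, Aldh18a1, Aldh16a1 and Aldh4a1, and only Aldh6a1 (24.1 ± 1.96) and Aldh18a1 (21.9 ± 0.938) had overlapping libraries. In KMF it was Aldh2, Aldh3a1, Aldh3a2, Aldh18a1, Aldh3b1, Aldh6a1, Aldh16a1 and Aldh4a1, and the libraries of Aldh3a2 (29.4 ± 0.965) and Aldh18a1 (29.2 ± 0.337) overlapped. Aldh18a1 thus moved ahead of Aldh3b1 and Aldh6a1, while the first 3 and the last 2 places held the same genes in both lines.

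The summed level of the 8 genes was 810, 728 and 915 FPKM in ID8 and 639, 736 and 676 FPKM in KMF. KMF replicate 2 was above ID8 replicate 2, so the lines overlapped in this sum, but in no other pair of libraries. The log2 ratio of the mean sums, KMF over ID8, was -0.26. It was -0.17 without ID8 replicate 3 and -0.34 without ID8 replicate 2. Without Aldh2 the sums overlapped too, at 285 ± 33.2 and 306 ± 42.1 FPKM. Without both Aldh2 and Aldh3a1 they were 180, 174 and 185 in ID8 and 101, 102 and 104 in KMF, with no overlap. The same sum of all 8 taken after scaling the FPKM of the listed genes to the same total in every library did not overlap, at 3719 ± 415 and 2984 ± 206.

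The shares of several members in the sum differed between the lines without overlap. Aldh2 supplied 65.5%, 65.0% and 65.0% of it in ID8 and 56.8%, 51.9% and 57.3% in KMF. Aldh3a1 supplied 12.3%, 11.1% and 14.8% in ID8 and 27.4%, 34.2% and 27.3% in KMF. Together these genes made up 77.9% ± 1.86 of the sum in ID8 and 84.9% ± 1.02 in KMF, and the share of Aldh3b1 went from 6.63% ± 0.229 to 2.93% ± 0.126. The ratio of Aldh2 to Aldh3a1 was 5.33, 5.85 and 4.38 in ID8 and 2.07, 1.52 and 2.10 in KMF.

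**Figure D4:**
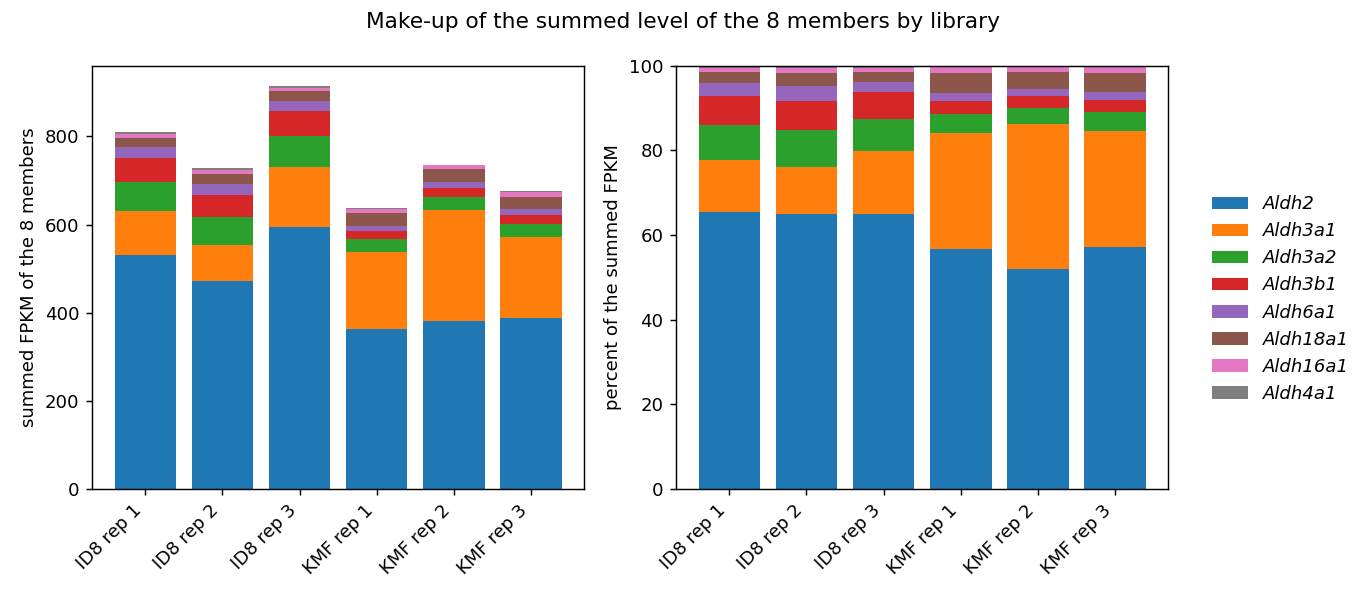
Summed FPKM of the 8 members in each library (left) and the percent that each member supplied (right). Colours mark the members in the same order in both panels. Aldh2 takes 65.0% to 65.5% of the bar in ID8 and 51.9% to 57.3% in KMF, and the Aldh3a1 segment is larger in each KMF library than in any ID8 library.

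The summed level of the 7 ALDH1 genes was 420 ± 93.8 FPKM in ID8 and 127 ± 36.5 FPKM in KMF. Most of this sum was Aldh1a1, at 362 ± 93.2 and 92.5 ± 27.7 FPKM. Of the 7 genes, 5 were called lower and 1 higher, beside 47.5% and 45.4% of all fitted genes, and Aldh1a7 was not called. The largest changes were those of Aldh1a2, Aldh1l1 and Aldh1b1, with log2 fold changes of -6.84, -2.68 and -2.56. The sum of the 8 members was 1.76 to 2.43 times that of ALDH1 in ID8 and 4.35 to 6.22 times in KMF. Of the other aldehyde dehydrogenases in the table, Aldh7a1, which acts in lysine breakdown, fell from 12.4 to 6.04 FPKM (it fell by 1.00 ± 0.11 on the log2 scale, adjusted p = 0.000345). Aldh5a1, which finishes 4-aminobutyrate breakdown after Abat, fell from 2.71 to 1.46 FPKM (-0.86 ± 0.14, adjusted p = 0.00232).

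**Figure D5:**
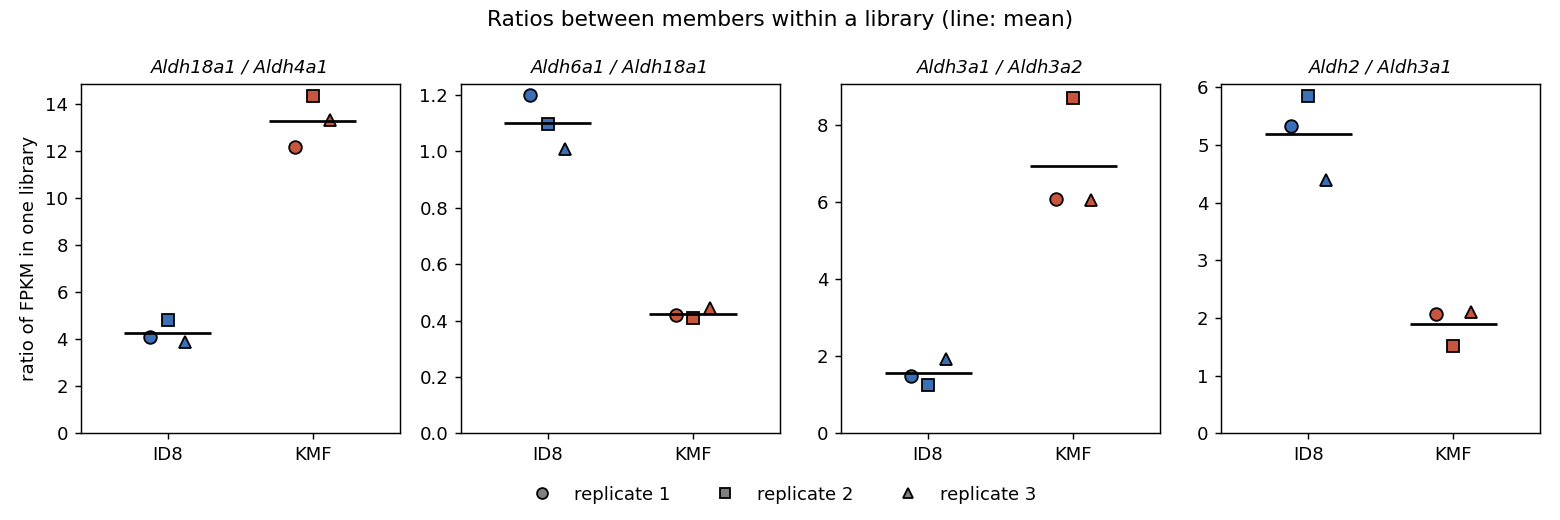
Ratios of FPKM between pairs of members in the same library, by line, with symbols for replicates and a line at the mean, on axes that start at 0. The lines are separate in each panel, with Aldh18a1 to Aldh4a1 at 3.87 to 4.83 in ID8 and 12.2 to 14.4 in KMF.

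Libraries of one line did not move alike in all members. Of the 8 genes, 5 were highest of their line in ID8 replicate 3 (Aldh2, Aldh3a1, Aldh3a2, Aldh3b1 and Aldh4a1), and the same 5 were lowest in ID8 replicate 2. Aldh6a1, Aldh16a1 and Aldh18a1 did not follow them, and Aldh6a1 and Aldh16a1 were lowest in ID8 replicate 3. ID8 replicate 3 was also the library of the highest passage, 35, while replicate 1 was at passage 23 and replicate 2 at 24. Each passage is a single library, and the part of passage was not tested. How many of all listed genes follow the same order of libraries was not counted. In KMF, 5 members were lowest in replicate 1.

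Genes that make or use the substrates of ALDH3A2 and ALDH3B1 were examined as well. A list of 13 genes of fatty aldehyde and sphingolipid breakdown had 7 in the table, 4 called higher and 3 lower in KMF, a split near that of all fitted genes (45.4% higher and 47.5% lower). Far1, which reduces fatty acyl-CoA to fatty alcohol, was at 20.3, 20.4 and 17.4 FPKM in ID8 and 34.9, 44.6 and 42.9 in KMF (1.11 ± 0.12, adjusted p = 0.000233). Sphk1, which makes sphingosine-1-phosphate, rose from 3.79 to 8.35 FPKM (1.18 ± 0.23, adjusted p = 0.00452), and the ceramidase gene Acer3 from 11.2 to 19.4 FPKM (0.84 ± 0.10, adjusted p = 0.000424). Sgpl1, the lyase that releases the fatty aldehyde oxidised by ALDH3A2, was named after its values were seen. It was lower in KMF at 18.2, 17.1 and 17.7 FPKM than in ID8 at 25.0, 24.3 and 25.1 (-0.45 ± 0.06, adjusted p = 0.00112).

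Aldehydes can also be reduced to alcohols. Of a list of 21 reductases and alcohol dehydrogenases, 12 were in the table, with 7 called lower, 3 higher and 2 not called, and a median log2 fold change of -0.70. Over all fitted genes 47.5% were called lower and 45.4% higher, with a median of -0.23. Cbr1, a carbonyl reductase of lipid aldehydes and quinones, was almost lost, from 30.4, 31.6 and 31.7 FPKM in ID8 to 0.206, 0.385 and 0.511 in KMF (-6.31 ± 0.23, adjusted p = 4.87e-06). Akr1c12 and Akr1b7, both under 1.2 FPKM in every library, had log2 fold changes of -2.42 ± 0.57 and -2.03 ± 0.63.

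The promoter of Aldh18a1 is shown because, of the member promoters examined, it held the most matches to CACGTG and GCGTG. RefSeq promoters on GRCm38.p6 were found for 6 of the 8 members (7 sequences), and Aldh2 and Aldh3a1 had no entry. The 250 bases before the start of Aldh18a1 (chr19:40588464-40588713, minus strand) follow, with matches to CACGTG and to GCGTG on either strand in capitals. Every motif was searched on both strands, and overlapping matches were not merged. CACGTG is the E-box bound by MYC and related factors, and GCGTG is the core of the aryl hydrocarbon receptor and hypoxia elements.
Aldh18a1: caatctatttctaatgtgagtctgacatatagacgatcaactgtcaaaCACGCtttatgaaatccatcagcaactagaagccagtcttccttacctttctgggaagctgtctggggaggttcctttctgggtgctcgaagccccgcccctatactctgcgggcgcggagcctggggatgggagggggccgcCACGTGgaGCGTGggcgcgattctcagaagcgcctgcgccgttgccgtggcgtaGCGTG

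CACGTG was present in 2 of the 7 member promoters, those of Aldh18a1 (59 bases before the start) and Aldh3a2 (30 bases before), and in 6.02% of all 32851 promoters of the table. GCGTG was present in Aldh18a1, Aldh4a1 and Aldh3a2, and in 28.2% of all promoters. TGACNNNGC, the core of the antioxidant response element bound by NRF2, was in none of the member promoters and in 10.2% of all. TATAAA was in none and in 12.4% of all, CCAAT was in 5 member sequences and in 33.8% of all, and GGGCGG was in 4 and in 32.7% of all. Members with CACGTG thus included one that rose and one that fell, and the letters describe these windows only.

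Genes whose levels followed those of a member over the 6 libraries were ranked by Pearson r of log2(CPM + 0.5), where CPM is the count relative to the library total. With libraries in separate lines such r values mainly reflect the difference between lines, and no p is given. Closest to Aldh2 were Mavs (r = 0.998), an adaptor of RNA sensing in mitochondria, Gba2 (0.997), a glucosylceramidase, and Lurap1 (0.997). These fell by 0.86, 0.63 and 0.63 on the log2 scale. Closest to Aldh3b1 were Phkb, a phosphorylase kinase subunit, Cryl1, a lambda-crystallin, and Rab38, a small GTPase, each at r = 0.999. A further measure of how common such likeness was is that 53 listed genes had r above 0.99 with Aldh2 and 349 with Aldh3b1.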

How the data were processed

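RNA sequencing of 3 ID8 and 3 KMF libraries was analysed from the deposited table. TopHat2 mapping and a DESeq2 comparison are given in the study's methods, while the submitters' processing notes name CASAVA 1.8, STAR 2.5, DESeq2 and mm10 without roles. The authors deposited raw counts per gene and library, the FPKM they computed from them, gene lengths, and their own comparison. Their deposited columns also hold a signal (the mean normalised count per line), a log2 fold change and its p-value with adjustment, none of which are reported. The deposited p-value columns served only to recover that 17359 genes had been tested, the largest adjusted p listed being 0.0499. Positions matched GENCODE M21 (GRCm38) for 7286 of 7320 identifiers.

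Library totals were recovered from counts, FPKM and length. A total of 100% of FPKM values were rebuilt within 0.01%, and 3 counts equal 0.0903 to 0.13 CPM. Counts were fitted with edgeR 4.0.16 (glmQLFit and glmQLFTest, two-sided) in R 4.3.3 with TMM scaling and filterByExpr (6967 genes kept), without a block, and adjusted over 17359 genes by Benjamini-Hochberg, with the genes that are not listed assumed to follow in rank. On simulated data of 7320 genes with 200 changed by 1 log2 unit, 93.5% were recovered with 4 false calls. Libraries of one line differed by a chi-square of at least 19.3 per degree of freedom and were kept as 6 samples. Sums, shares and ratios are descriptions, since an exact test of 3 against 3 cannot go below 0.1.

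The members and gene lists were chosen with earlier results of these data known. Named genes are all members, the 3 called genes with the largest absolute change of each list, and the 3 listed genes most like Aldh2 (the highest level) and Aldh3b1 (the largest change). Other genes were named after their values were seen, as neighbours in a pathway or on a chromosome. A few genes that enter these counts are not reported here by name. Some list entries are older names of another entry. Coding sequences were translated and aligned with Biopython 1.88. Alternatives were DESeq2 1.42.0, limma 3.58.1 on log2(FPKM + 1) and log2(FPKM + 0.1), other scalings and filters, adjustment over the fitted genes alone, a replicate block, and leaving out each library. Figures used matplotlib 3.10.9 in Python 3.11.15.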

Additional observations from a re-analysis of the deposited data

How the results depend on the processing

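All 8 members stayed called, with 3 higher and 5 lower, under each of the 15 other settings run. The listed genes had been selected on these same libraries, so this adds nothing to how the members were listed. None of the 187 alternative values changed direction or crossed the threshold, nor did a count move by over 1.5 times. Estimates ranged from -0.57 to -0.38 for Aldh2, 0.83 to 1.21 for Aldh3a1, -1.26 to -1.12 for Aldh3a2, -1.51 to -1.34 for Aldh3b1, -1.30 to -0.94 for Aldh4a1, -1.03 to -0.88 for Aldh6a1, 0.31 to 0.48 for Aldh16a1 and 0.34 to 0.50 for Aldh18a1. The largest adjusted p was 0.0313, for Aldh2. Calls over the table ranged from 5189 of 7029 fitted genes (without ID8 replicate 1) to 6956 of 6967 (adjusted over the fitted genes alone), beside 6470 of 6967. The median of all genes moved from -0.23 to -0.35 with upper quartile scaling (a shift of -0.11), and turned sign to 0.20 where each library had to hold 10 counts of a gene and to 0.20 and 0.22 in the limma fits, each of which kept fewer genes, and the smallest change of a member in any setting was 0.31, for Aldh16a1. Libraries of one replicate number deviated with r of 0.0665, -0.187 and 0.0693, within the range of -0.254 to 0.245 for libraries of different numbers. With 3 libraries per line, these r values cannot decide whether samples of one number were prepared together. With a replicate block 5720 genes were called and members again split into 3 higher and 5 lower. Among the aldehyde dehydrogenases outside ALDH1, the least certain values are those of Aldh3b2, with 4 to 135 counts. Some genes of the other lists rest on fewer, such as Akr1b7 with 2 to 35 counts. Genes that the authors' test did not call are outside the table, so no statement covers a member of a list that did not change.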

Other observations

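Aldh3a1 is listed among targets of the aryl hydrocarbon receptor and of the stress factor NRF2, and both sets were examined. Of 10 names in the aryl hydrocarbon receptor battery, 6 were in the table, 4 higher and 2 lower in KMF, beside 45.4% and 47.5% of all fitted genes. Cyp1b1, a cytochrome of steroid and aromatic oxidation, was at 45.6, 51.9 and 31.7 FPKM in ID8 and 166, 146 and 131 in KMF (edgeR log2 fold change 1.81 ± 0.19, adjusted p = 0.000258). Gsta1, a glutathione transferase, was at 29.4, 40.0 and 55.2 FPKM in ID8 and 102, 138 and 190 in KMF (1.83 ± 0.27, adjusted p = 0.00136). Ahr, the receptor itself, was named after its values were seen and rose by 1.10 ± 0.19 on the log2 scale. Ahrr, the repressor of the receptor, had 580, 412 and 734 counts in ID8 and 1, 1 and 2 counts in KMF. Nqo1, which belongs to both sets, fell from 205 to 108 FPKM (-0.88 ± 0.20, adjusted p = 0.00926).

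Of 19 NRF2 target names, 11 were in the table, with 6 lower, 3 higher and 2 not called (47.5% lower and 45.4% higher over all fitted genes), and a median log2 fold change of -0.32, beside -0.23 for all fitted genes and 0.20 for those with at least 10 counts in every library. Gstm1, a glutathione transferase, fell from 1029 to 213 FPKM (-2.23 ± 0.16, adjusted p = 4.49e-05), and Osgin1, an oxidative stress-induced growth inhibitor, from 39.2 to 10.4 FPKM (-1.87 ± 0.13, adjusted p = 3.74e-05). Whether either factor takes part in the change of Aldh3a1 was not tested.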
